A study of Homo sapiens with 18 samples.

Results

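The interferon regulatory factor (IRF) genes considered here were IRF1, IRF2, IRF4, IRF5, IRF7, IRF8 and IRF9, and their regions were the sites of the authors' deposited ChIP-seq table that name 1 of these 7 genes as the nearest gene. Of the 11571 sites in the table, 11 met this rule. IRF1 had 6 sites, IRF8 had 3, and IRF2 and IRF4 had 1 each. IRF5, IRF7 and IRF9 had no site.

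Chromatin immunoprecipitation was performed for the glucocorticoid receptor (GR) and for RELA, the p65 subunit of NF-κB, in A549 cells, a wild-type human lung carcinoma line used as a model of type II alveolar epithelium. Serum-starved cells were not stimulated (NS) or were treated for 1 hour with IL-1β at 1 ng/mL, with the glucocorticoid budesonide at 300 nM, or with IL-1β-plus-budesonide. The 18 libraries, 8 for GR, 8 for RELA and 2 of input chromatin, gave 2 libraries for each of 9 groups and came from 2 independent experiments in a single cell line. The table compares GR with budesonide, GR with cotreatment, RELA with IL-1β and RELA with cotreatment, each with the NS cells of the same antibody, whereas the input libraries, GR with IL-1β and RELA with budesonide were not analysed here.

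For each site of 400 bp the table gives a binding intensity and a fold over NS, both on a logarithmic scale taken here as log2, and a false discovery rate (FDR), which is the authors' p-value for treatment against NS adjusted over sites. A call for a factor requires an FDR of no more than 0.05, a log2 fold over 1 and an intensity of 4 or higher. Values are for a condition and not for each library, which leaves depth and the variation between both experiments unknown, so no error can be set beside a value. A difference between cotreatment and a single treatment was taken by subtracting their log2 folds, and it carries no test of its own.

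IRFs are transcription factors that share an amino-terminal DNA-binding domain and bind repeats of the letters GAAA, the core of the interferon-stimulated response element (ISRE). IRF1 is an activator that interferon-γ induces and that proinflammatory cytokines induce through NF-κB. IRF2 counteracts IRF1 at shared elements, and IRF5 and IRF7 drive interferon and cytokine genes downstream of pattern-recognition receptors. IRF9 acts in the transcription of genes that answer type I interferon, whereas IRF4 and IRF8 are best known as lineage factors of lymphoid and myeloid cells. NF-κB dimers bind κB elements, and ligand-bound GR binds glucocorticoid response elements (GREs) or joins other factors on DNA.

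The central 200 bp of the 6 called sites with the highest intensities are printed 5′ to 3′ on the plus strand of GRCh38. Capitals in the IRF1 sequences mark full matches to the κB consensus where there is one, at +15.0 kb, and otherwise the closest κB stretch, which matches 8 of 9 defined positions. In the IRF8 and IRF4 sequences capitals mark the stretch closest to a GRE, matching 8 and 9 of 12 defined positions, respectively. Where several partial stretches matched equally, only the most central is in capitals, as at −7.4 kb of IRF1. A stretch matching at least 8 of 12 was common, in the central 200 bases of 70.9% of all sites and of 5 of 11 IRF sites. The order is IRF1 at −6.1 kb (chr5:132497032-132497231), IRF1 at −7.4 kb (chr5:132498282-132498481), IRF1 at −1.9 kb (chr5:132492831-132493030), IRF1 at +15.0 kb (chr5:132475458-132475657), IRF8 at +41.0 kb (chr16:85940252-85940451) and IRF4 at +30.8 kb (chr6:422646-422845).
IRF1 −6.1 kb: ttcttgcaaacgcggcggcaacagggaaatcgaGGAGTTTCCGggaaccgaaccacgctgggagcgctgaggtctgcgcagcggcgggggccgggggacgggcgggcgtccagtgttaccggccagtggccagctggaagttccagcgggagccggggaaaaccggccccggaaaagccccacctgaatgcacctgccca
IRF1 −7.4 kb: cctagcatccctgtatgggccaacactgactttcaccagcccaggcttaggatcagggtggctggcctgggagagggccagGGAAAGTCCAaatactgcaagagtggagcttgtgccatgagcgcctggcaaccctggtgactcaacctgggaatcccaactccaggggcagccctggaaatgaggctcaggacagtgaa
IRF1 −1.9 kb: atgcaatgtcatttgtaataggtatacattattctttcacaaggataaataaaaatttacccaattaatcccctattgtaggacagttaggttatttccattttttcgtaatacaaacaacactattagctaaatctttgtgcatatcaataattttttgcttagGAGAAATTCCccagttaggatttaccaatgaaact
IRF1 +15.0 kb: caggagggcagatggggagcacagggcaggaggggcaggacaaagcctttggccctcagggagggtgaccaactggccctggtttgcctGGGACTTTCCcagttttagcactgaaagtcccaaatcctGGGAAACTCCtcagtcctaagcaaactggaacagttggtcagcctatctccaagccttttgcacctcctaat
IRF8 +41.0 kb: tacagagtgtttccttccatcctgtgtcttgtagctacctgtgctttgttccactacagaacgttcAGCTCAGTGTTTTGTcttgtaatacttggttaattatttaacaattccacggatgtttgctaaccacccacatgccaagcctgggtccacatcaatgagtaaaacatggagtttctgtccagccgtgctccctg
IRF4 +30.8 kb: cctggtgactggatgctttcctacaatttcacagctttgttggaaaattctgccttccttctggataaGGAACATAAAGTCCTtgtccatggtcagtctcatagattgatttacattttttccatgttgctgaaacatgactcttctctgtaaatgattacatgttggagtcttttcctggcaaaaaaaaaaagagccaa

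The 6 sites of IRF1 covered the gene from 14.6 kb upstream to 44.6 kb downstream of its start. The RefSeq gene lies on the minus strand of chromosome 5 from 132481609 to 132490773 (GRCh38.p14), and no site of the table fell inside it. In GENCODE 44, however, long IRF1 transcripts and the overlapping gene ENSG00000283782 span all 6 sites as introns, and the +15.0 kb site also overlaps an exon of the long noncoding RNA IRF1-AS1. The nearest site to the RefSeq gene was 1958 bp from it, so the promoter itself carried no listed site. Neighbouring sites at −7.4 and −6.1 kb were 1250 bp apart between centres.

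RELA recruitment to the IRF1 locus was strong with IL-1β and was largely kept with cotreatment. RELA was called at 4 of the 6 IRF1 sites with IL-1β and at the same 4 with cotreatment, and at none of the other 5 IRF sites. Over all sites RELA was called at 40.9% with IL-1β and at 42.1% with cotreatment. The strongest site was −6.1 kb (chr5:132496932-132497331), where RELA intensity was 7.52 with IL-1β and 7.24 with cotreatment. These intensities were at the 98.6 and 98.4 percentiles of all sites, with log2 folds of 3.55 (FDR 1.83e-08) and 3.27 (FDR 2.78e-07).

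The adjacent region at −7.4 kb (chr5:132498182-132498581) was similar, with RELA intensities of 7.41 and 7.06 and log2 folds of 3.41 (FDR 6.11e-06) and 3.05 (FDR 6.11e-05). At −1.9 kb (chr5:132492731-132493130) RELA intensity was lower, 6.48 with IL-1β and 5.96 with cotreatment, but its log2 folds, 4.37 (FDR 1.25e-08) and 3.86 (FDR 5.73e-07), were the highest RELA folds of the locus. All 3 of these upstream sites were lower with cotreatment than with IL-1β, by log2 differences of −0.29, −0.36 and −0.51. The order of the 3 intensities was the same with both treatments, with −6.1 kb above −7.4 kb and both above −1.9 kb, but 7.52 and 7.41 are too close to be ordered without a measure of error.

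Downstream of the gene, the +15.0 kb site (chr5:132475358-132475757) moved the other way. RELA intensity was 4.94 with IL-1β and 5.78 with cotreatment, and the log2 fold was 2.44 (FDR 0.00077) and 3.33 (FDR 4.2e-06), a difference of 0.89. Of the sites at which RELA was called, only this IRF site was higher with cotreatment by more than 0.5.

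The outer sites of the locus were not called for RELA. At −14.6 kb (chr5:132505357-132505756) RELA intensity was 2.70 with IL-1β and 4.28 with cotreatment, and the log2 fold went from −0.24 (FDR 0.89) to 1.81 (FDR 0.13). This was the largest RELA difference of the IRF sites, 2.05, at the 89.6 percentile of all sites, but neither treatment passed the test against NS. At +44.6 kb (chr5:132445827-132446226) RELA intensity was 4.84 and 4.94, whereas the log2 folds were only 0.57 (FDR 0.54) and 0.73 (FDR 0.38). Subtracting fold from intensity leaves 4.27 and 4.22 there, an estimate of the RELA intensity in NS cells that is above those of 3.96 and 3.97 at −6.1 kb.

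GR recruitment to IRF1 was called with cotreatment and not with budesonide, while GR with IL-1β was not analysed here. With budesonide, GR was called at 0 of the 6 IRF1 sites and at 2 of the 11 IRF sites, against 56.0% of all sites. With cotreatment, it was called at 5 of 6 IRF1 sites and at 7 of 11 IRF sites, against 60.5% of all sites. All 5 IRF1 calls were gains, GR calls made with cotreatment but not with budesonide, which occurred at 15.1% of all sites. The other 5 IRF sites had no gain. The 6 IRF1 sites lie within 1 locus, and the 3 nearest the gene start are 4201 and 1250 bp apart, so they are not independent regions.

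The largest gain was at +15.0 kb, where GR intensity was 2.34 with budesonide and 5.47 with cotreatment. The log2 fold over NS was 0.47 (FDR 0.67) with budesonide and 4.08 (FDR 2.05e-06) with cotreatment, a difference of 3.61 that was at the 97.5 percentile of all sites. Taken as log2, this is a ratio of 12.3 between the treatments, but the intensities differed by less, 3.12. At −6.1 kb GR intensity was 2.74 and 4.88, and the log2 fold was −0.04 (FDR 0.98) with budesonide and 2.73 (FDR 0.011) with cotreatment. At −7.4 kb GR intensity was 2.98 and 4.25, with log2 folds of 0.96 (FDR 0.48) and 2.48 (FDR 0.034).

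At the outer 2 sites GR was gained as well. GR intensity at +44.6 kb was 2.68 with budesonide and 4.16 with cotreatment, and the log2 fold was 2.04 (FDR 0.076) and 3.59 (FDR 0.0010). At −14.6 kb it was 3.38 and 4.28, with log2 folds of 1.37 (FDR 0.12) and 2.46 (FDR 0.0031). The −14.6 kb site had the highest GR intensity with budesonide of the locus and the smallest difference, 1.08.

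The site nearest the gene start, at −1.9 kb, had the lowest GR intensity with budesonide, 0.85, at the 4.2 percentile of all sites, and 3.91 with cotreatment. Its log2 fold was −0.28 (FDR 0.89) with budesonide and 3.25 (FDR 0.028) with cotreatment, and it missed the call through intensity alone. Without the limits on intensity and fold, GR passed the FDR limit upward at 0 of 6 IRF1 sites with budesonide and at 6 of 6 with cotreatment. For all 11 IRF sites these counts were 2 and 8, against 63.0% and 72.0% of all sites. For RELA, 5 of 11 IRF sites passed with each treatment, against 44.9% of all sites with IL-1β and 48.6% with cotreatment. The IRF1 calls for GR with cotreatment mostly sat near the limits. With an intensity of at least 5 only 1 of 6 sites remained called, and with an FDR of at most 0.01 there were 3.

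**Figure D1:**
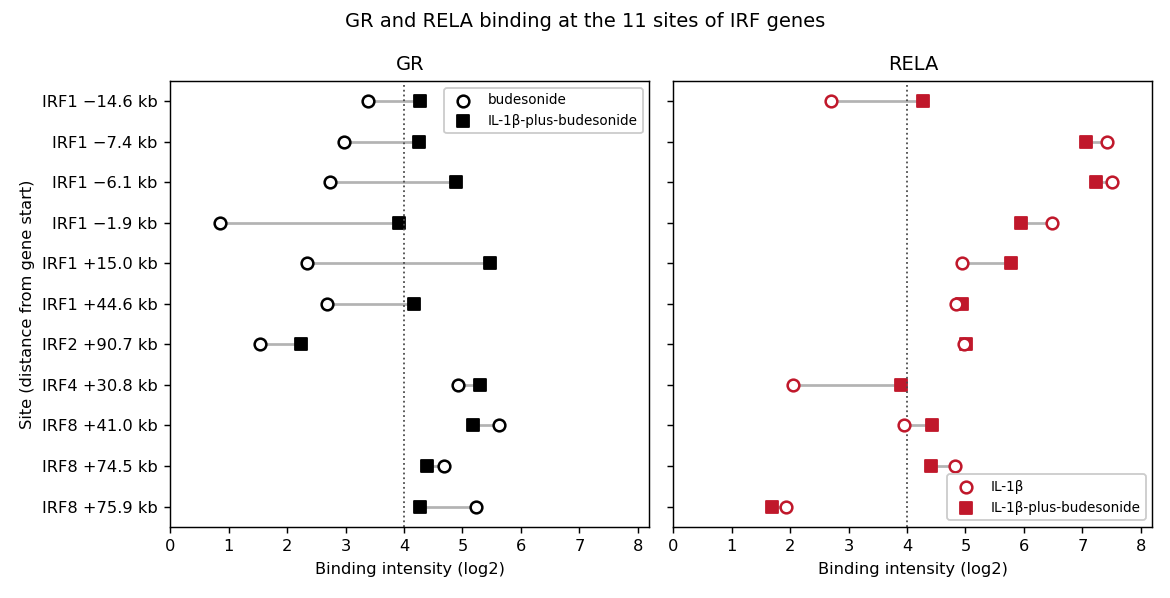
Binding intensity (log2, horizontal axis) of GR in the left panel and of RELA in the right panel at each of the 11 IRF sites, named by gene and distance from the gene start. Open circles show the single treatment, squares show cotreatment, grey lines join the pair and the dotted line is the intensity of 4 needed for a call. At IRF1 the GR squares lie right of every GR circle, and RELA reaches 7.52 at −6.1 kb, while at the 3 IRF8 sites the GR squares lie left of the circles.

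Among the IRF1 sites GR intensity with budesonide ranged from 0.85 to 3.38 and with cotreatment from 3.91 to 5.47. The medians of all sites were 4.65 and 4.64. These ranges are over neighbouring sites of a single locus and give no error between libraries. The GR difference was above 0.5 at all 6 IRF1 sites and at 7 of 11 IRF sites, the seventh being IRF2, against 40.0% of all sites. It was below −0.5 at 2 IRF sites, both of IRF8, against 28.4%. The median GR difference was 2.16 over the IRF1 sites and 0.14 over all sites. For RELA a difference above 0.5 occurred at 4 of 11 IRF sites, 2 of them at IRF1, against 38.2% of all sites, and below −0.5 at 2, 1 of them at IRF1, against 24.3%. The median RELA difference was −0.06 at IRF1 and 0.10 over all sites.

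The IRF1 pattern was therefore also set beside sites with the same starting calls. Across the table, RELA was called with IL-1β while GR was not called with budesonide at 3575 sites, and GR was called with cotreatment at 1145 of these (32.0%). The median GR difference of the 3575 sites was 1.44. The class held 4 IRF sites, all at IRF1, and 3 of these gained GR. RELA was still called with cotreatment at 75.6% of the class and at 4 of the 4 IRF1 sites. A further 1517 sites had neither factor called with its single treatment, and 597 of them (39.4%) gained GR, as did 2 of the 5 IRF sites among them, both at IRF1. Gain of GR was thus frequent in both classes, but both leave out the sites called for GR with budesonide, which cannot gain GR. Their shares and the median of 1.44 are raised by this choice beside the 15.1% and 0.14 of all sites. Calls of both factors with cotreatment occurred at 3 IRF sites, those of IRF1 at −7.4, −6.1 and +15.0 kb, and at 26.8% of all sites.

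**Figure D2:**
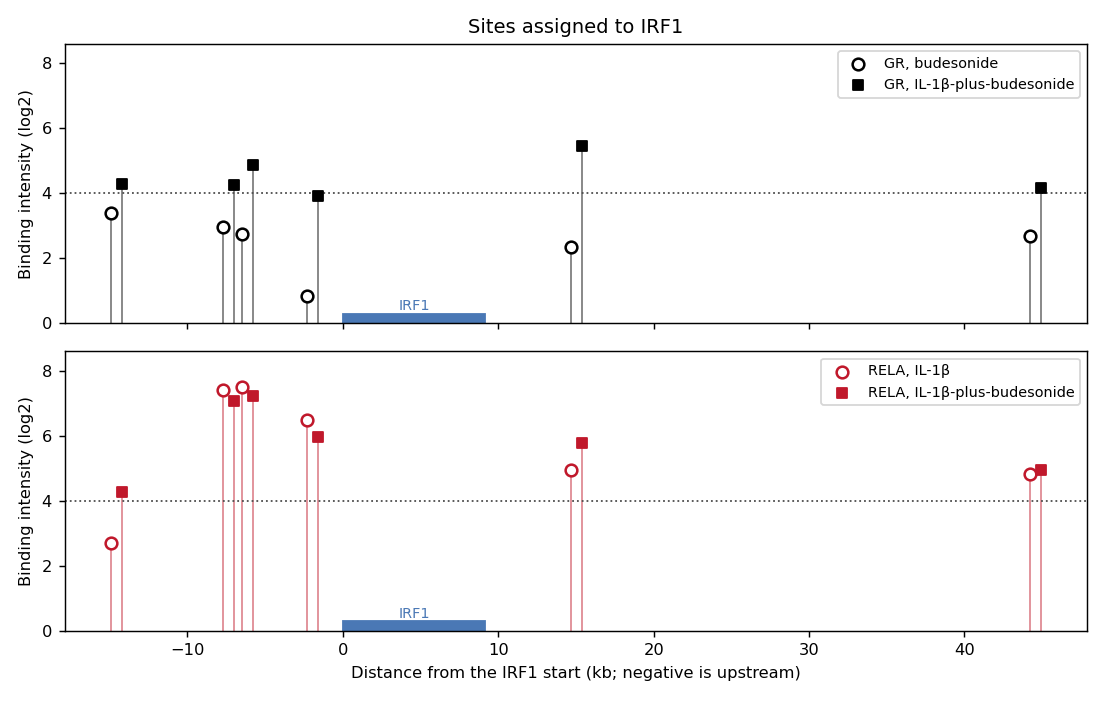
Binding intensity (log2, vertical axis) of GR in the upper panel and RELA in the lower panel at the 6 IRF1 sites, against distance from the gene start in kb, with negative values upstream. Open circles show the single treatment and squares show cotreatment, drawn side by side around each site's position; the blue bar is the RefSeq gene and the dotted line the intensity of 4 needed for a call. No GR circle reaches the line and 5 of 6 GR squares do, with the highest at +15.0 kb, whereas RELA is highest at −7.4 and −6.1 kb.

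IRF4, a regulator of lymphocyte differentiation, had 1 site, 30.8 kb downstream of its start (chr6:422546-422945), 11.1 kb beyond the RefSeq end of the gene and in no GENCODE gene. GR intensity was 4.92 with budesonide and 5.30 with cotreatment, with log2 folds of 4.91 (FDR 1.26e-07) and 5.29 (FDR 1.53e-08), and the site was called with both. The GR difference of 0.38 was below the limit of 0.5. RELA intensity was 2.04 with IL-1β and 3.90 with cotreatment. Its log2 folds were 4.29 (FDR 0.0016) and 5.82 (FDR 2.15e-05), past the FDR limit with both treatments, but neither intensity reached 4 and the site was not called for RELA. The intensity of 3.90 lay just below that limit, and the difference between the treatments was 1.53. Intensity minus fold gave −2.25 and −1.92 for RELA in NS cells, so the NS estimate was below 0 on this scale.

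IRF8, a determinant of myeloid and dendritic cell fate, had 3 sites, all downstream of the gene. The +41.0 kb site (chr16:85940152-85940551), inside the long noncoding RNA gene ENSG00000285163 but in no exon, had the highest GR intensity of the IRF sites with budesonide, 5.63. With cotreatment its intensity of 5.17 was below those of IRF1 at +15.0 kb and of IRF4. GR was called with both, with log2 folds of 3.25 (FDR 0.0063) and 2.79 (FDR 0.019). RELA intensity there was 3.95 with IL-1β and 4.43 with cotreatment, and the log2 folds of 0.52 (FDR 0.66) and 1.17 (FDR 0.24) did not pass the test. With the IRF4 site, this made 2 IRF sites at which GR was called with budesonide and was still called with cotreatment. Neither was called for RELA, and RELA calls made with cotreatment but not with IL-1β occurred at 0 of 11 IRF sites, against 9.90% of all sites.

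The other 2 IRF8 sites, 1316 bp apart, lie inside the long noncoding RNA gene ENSG00000285040. At +75.9 kb (chr16:85975030-85975429) GR intensity was 5.23 with budesonide and 4.27 with cotreatment, and the log2 folds of 3.33 (FDR 0.10) and 2.55 (FDR 0.20) did not pass the FDR limit. RELA intensity there was 1.94 and 1.69. At +74.5 kb (chr16:85973714-85974113) GR intensity was 4.69 and 4.40, and the log2 folds of −0.11 (FDR 0.89) and −0.77 (FDR 0.25) did not separate treated from NS cells.

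The +74.5 kb site of IRF8 was the only IRF site at which a factor fell below NS past the FDR limit. RELA intensity was 4.83 with IL-1β and 4.41 with cotreatment, and the log2 fold was −0.77 (FDR 0.45) and −2.31 (FDR 0.013), respectively. A fall in RELA past the FDR limit with cotreatment was rare, at 24 of 11571 sites (0.207%), and the fold was at the 0.4 percentile. The size of this fall depends on the column used, since the log2 folds differed by −1.53 between the treatments and the intensities by −0.42. Intensity minus fold, which would be the same NS value for both treatments, was 5.60 with IL-1β and 6.71 with cotreatment.

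IRF2, the antagonist of IRF1, had 1 site, 90.7 kb downstream of its start (chr4:184383470-184383869), 3.9 kb beyond the RefSeq end of the gene and in no GENCODE gene. RELA intensity was 4.98 with IL-1β and 5.00 with cotreatment, and the log2 folds of 1.56 (FDR 0.11) and 1.58 (FDR 0.096) did not pass the FDR limit. GR intensity was 1.53 with budesonide and 2.24 with cotreatment, with log2 folds of 0.40 (FDR 0.82) and 1.34 (FDR 0.35). The site was therefore called for neither factor, as were the +74.5 and +75.9 kb sites of IRF8. Absence of any call was found at these 3 of 11 IRF sites and at 7.18% of all sites.

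No site named IRF5, IRF7 or IRF9 as its nearest gene. The closest sites of the table lay 172.5 kb from IRF5 (assigned to TSPAN33), 336.4 kb from IRF7 (assigned to AP2A2) and 187.6 kb from IRF9 (assigned to NFATC4). The table lists only sites where a peak was found, so no listed peak lay nearer to these genes. It gives no value of GR or RELA at them, which is not a value of 0.

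**Figure D3:**
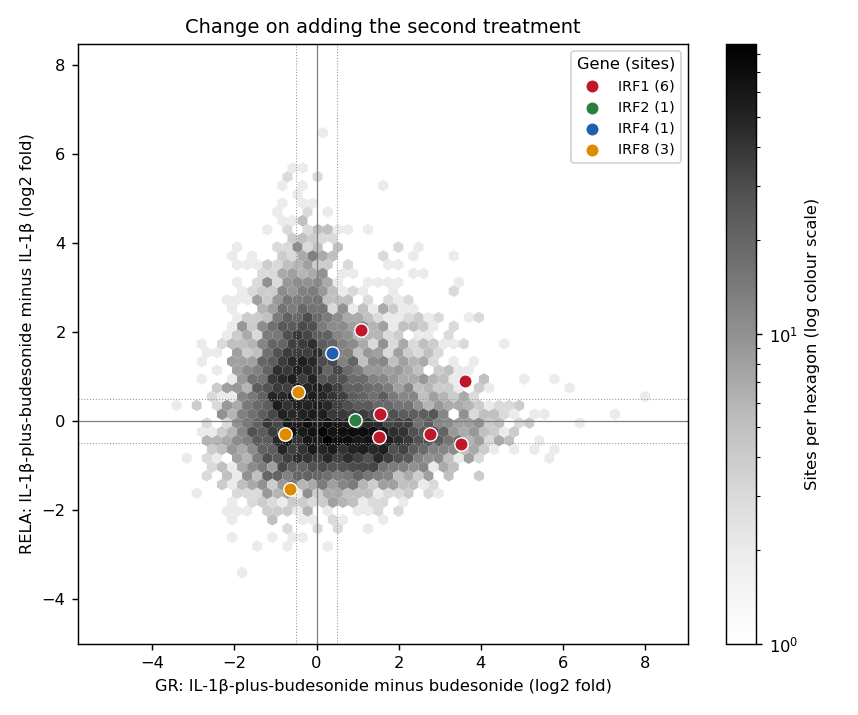
Difference in log2 fold of GR, cotreatment minus budesonide (horizontal axis), against that of RELA, cotreatment minus IL-1β (vertical axis), for all 11571 sites as grey hexagons shaded by the number of sites on a log colour scale and for the 11 IRF sites as coloured points. Dotted lines are at −0.5 and 0.5. The 6 IRF1 points lie right of 0.5 for GR, from 1.08 to 3.61, and between −0.51 and 2.05 for RELA, and the 3 IRF8 points lie left of 0.

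The distance to the gene start was set beside that of the whole table. Within 50 kb of a start were 8 of 11 IRF sites and 43.7% of all sites, and within 10 kb were 3 of 11, all at IRF1, and 14.1% of all sites. Within 1 kb there were none, against 3.45% of all sites. Base composition ranged widely among the IRF1 sites. The −6.1 kb site had a GC content of 67.5% (98.4 percentile) and the −1.9 kb site one of 28.75% (0.2 percentile), while the median of all sites was 44.5%.

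Each 400 bp site was searched on both strands for 4 elements. These were the palindromic GRE (AGAACA, 3 free bases, TGTTCT, at 10 or more of 12 defined positions), the κB consensus at all 9 of its defined positions, the ISRE core (GAAA, 2 free bases, GAAA) and the interferon-γ-activated site or GAS (TTC, 3 free bases, GAA). A match describes the reference sequence only. κB and GAS letters can overlap, as they do at −6.1 kb of IRF1.

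A κB match was present in 4 of 11 IRF sites, 3 at IRF1 and that of IRF2, against 21.1% of all sites and 39.2% of those called for RELA with IL-1β. The +15.0 kb site of IRF1 held 2, the GGGACTTTCC at chr5:132475547-132475556 and the GGGAAACTCC at chr5:132475586-132475595, which are the capitals in its sequence. The latter letters recurred on the minus strand at −14.6 kb (chr5:132505646-132505655), and +44.6 kb held GGGGAATCCC (chr5:132446085-132446094). IRF2 held GGGACTTCCC on the minus strand (chr4:184383642-184383651), 23 bp from its centre.

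The 3 sites with the highest RELA intensity, at −6.1, −7.4 and −1.9 kb of IRF1, had no full κB match, and their closest stretches in capitals differ from the consensus at 1 position. With that looser rule 9 of 11 IRF sites matched, as did 62.8% of all sites. Conversely, 3 of the 4 IRF sites with a full match were not called for RELA with IL-1β. Over the whole table most sites with a full match were called, 1858 of 2438.

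No IRF site held a GRE at 10 of 12 positions, against 13.8% of all sites and 21.5% of those called for GR with budesonide. At 9 of 12 positions 2 IRF sites matched, those of IRF4 and of IRF8 at +41.0 kb, against 43.4% of all sites and 57.4% of those called for GR with budesonide. The IRF4 stretch, GGAACATAAAGTCCT (chr6:422714-422728), was 25 bp from the site's centre. That of IRF8 (chr16:85940169-85940183) was 176 bp from the centre and outside the printed window. None of the 6 IRF1 sites, 5 of which gained GR, matched at 9 positions.

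An ISRE core and a GAS were present at 1 IRF site, −6.1 kb of IRF1. It held the ISRE core GAAACCGAAA on the minus strand (chr5:132497025-132497034, at the edge of the printed window) and the GAS TTCCGGGAA (chr5:132497070-132497078). An ISRE core occurred in 6.09% and a GAS in 16.5% of all sites.

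RefSeq promoters of 300 bp (GRCh38.p14, from 250 bases before to 50 after the start) were found for 5 of the 7 genes, and not for IRF2 or IRF7. The IRF1 promoter (chr5:132490724-132491023, minus strand) held the κB match GGGGAATCCC 50 bases before the start, the same letters as at +44.6 kb, and the GAS TTCCCCGAA 124 bases before it. That of IRF9 held the GAS TTCTGGGAA 63 bases before the start. Of 27305 promoters, 5.72% held a κB match, 7.88% a GAS, 3.65% an ISRE core and 1.44% a GRE. The promoters of IRF4, IRF5 and IRF8 held none of the 4.

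The sites of other genes most like each IRF gene's strongest site were ranked by Euclidean distance over the 4 intensities (log2 units, 4 values a site). For IRF1 at −6.1 kb the closest was a site at the start of TNFAIP3, which encodes the NF-κB inhibitor A20, at a distance of 0.185. Its GR intensities of 2.60 and 4.93 and RELA intensities of 7.63 and 7.24 were near the 2.74, 4.88, 7.52 and 7.24 of IRF1. Sites of HS3ST3B1 (0.437) and ARHGAP31 (0.453) came next. For IRF8 at +41.0 kb the closest were SLC29A3 (0.114), SNX27 (0.145) and RFTN1 (0.162), for IRF4 AUTS2 (0.261), FBRSL1 (0.294) and KLF7 (0.302), and for IRF2 CUEDC1 (0.160), ABI3BP (0.342) and GABBR1 (0.349).

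Around the IRFs, 76 further genes of the interferon pathway were listed by role, and 27 of them had 76 sites. GR was called at 25 of these sites (32.9%) with budesonide and at 44 (57.9%) with cotreatment, against 56.0% and 60.5% of all sites. RELA was called at 48 (63.2%) with IL-1β and at 50 (65.8%) with cotreatment, against 40.9% and 42.1% of all sites. GR was gained at 21 of the 76 sites, in 12 genes, against 15.1% of all sites. The shares were not tested against those of all sites, and the groups within the list, of 15 or fewer sites each, were not tested against each other.

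Of the 15 sites of receptor genes GR was called at 2 with budesonide and at 9 with cotreatment (60%, beside 60.5% of all sites), and RELA at 11 with IL-1β and 12 with cotreatment. The other shares over all sites were 56.0% for GR with budesonide, and 40.9% and 42.1% for RELA. At IFNGR2, a chain of the interferon-γ receptor, the site 214 bp from the start had GR intensities of 0.79 and 4.38 and RELA intensities of 7.21 and 6.38. A second IFNGR2 site, 19.5 kb upstream, had GR intensities of 1.87 and 6.04 and nearly equal RELA intensities of 6.66 and 6.62. At IFNAR2, a chain of the type I interferon receptor, the site 25.5 kb upstream had the highest RELA intensity of the list with IL-1β, 7.77, with 6.87 on cotreatment, and GR intensities of 3.35 and 5.03.

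Sensors and adaptors (IKBKE, TICAM1 and TRAF3) had RELA called at 5 of 5 sites with either treatment and GR at 0. IKBKE alone had 3 of these sites. Interferon-induced effectors had RELA called at 10 of 12 sites with IL-1β and at 9 with cotreatment, and GR at 0 with budesonide and 5 with cotreatment. Over all sites RELA was called at 40.9% with IL-1β and 42.1% with cotreatment. For GR the shares were 56.0% with budesonide and 60.5% with cotreatment. TRIM25, a ubiquitin ligase of RNA sensing, had a site 1.6 kb upstream with RELA intensities of 7.29 and 6.75 and no GR call. Among the brakes, SOCS3, an inhibitor of JAK signalling, had a site at 22.4 kb with GR intensities of 2.27 and 5.67 and RELA intensities of 7.24 and 6.59. The IRF2-binding protein gene IRF2BPL had a site 5.1 kb upstream with RELA intensities of 6.65 and 6.27 and no GR call.

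GR with budesonide was strongest on this list at PIAS1, JAK1 and IRF2BP2. PIAS1, a brake on interferon signalling, had GR called at 6 of 6 sites with both treatments, against 56.0% and 60.5% of all sites. Its strongest 3 sites had GR intensities of 7.67, 7.43 and 6.90 with budesonide and 7.13, 5.98 and 5.53 with cotreatment. JAK1, the kinase shared by interferon receptors, had GR intensities of 7.64 and 7.79 at 11.0 kb, and at 68.0 kb its log2 folds over NS were 9.44 and 9.56. At 11.0 kb RELA intensity was 1.57 with IL-1β and 5.09 with cotreatment, and RELA was called with cotreatment only. Such RELA gains occurred at 9.90% of all sites and at 0 of the 11 IRF sites, too few sites to tell these shares apart. IRF2BP2, an IRF2 corepressor, had GR intensities of 7.07 and 6.79 at a site 207.5 kb upstream. The highest GR intensity of an IRF site with either treatment was 5.63.

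**Figure D4:**
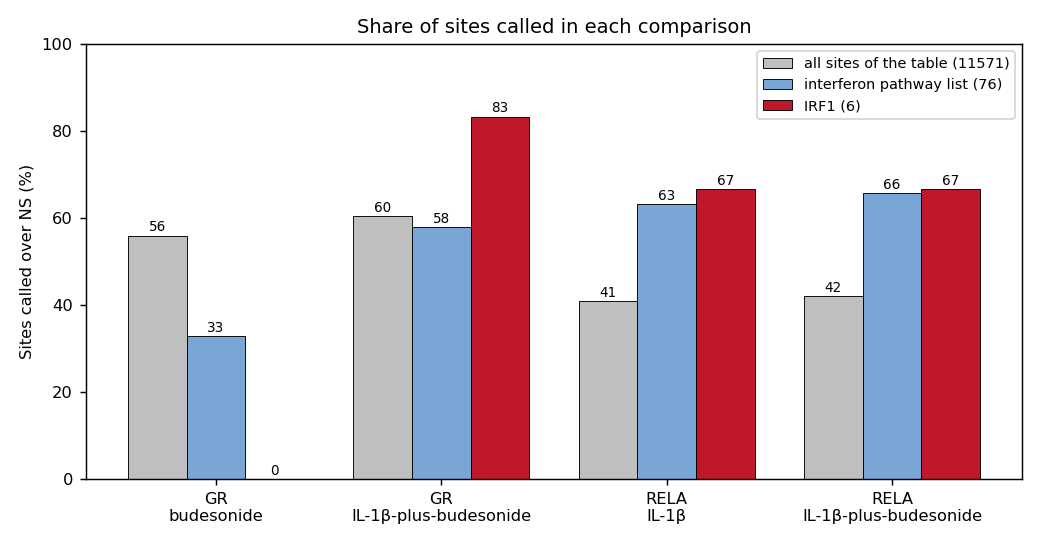
Share of sites called over NS (%, vertical axis, from 0) in each of the 4 comparisons, for all 11571 sites in grey, the 76 sites of the interferon pathway list in blue and the 6 sites of IRF1 in red, with the rounded share above each bar. GR with budesonide was called at none of the IRF1 sites and GR with cotreatment at 5 of 6. The IRF1 bars rest on 6 sites of a single locus.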

How the data were processed

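GR and RELA ChIP-seq data of A549 cells, 2 libraries a group, were used as 1 table of 46284 lines, 4 for each of 11571 sites. The submitters' notes name bcl2fastq, FastQC 0.10.1, Bowtie2 2.4.4, SAMtools, MACS2 2.2.7.1 and DiffBind 3.2, and the study's methods name GRCh38. The log2 fold over NS, the binding intensity on a like log2 scale and the FDR (an adjusted p-value) are the authors' deposited values. The base of the logarithm, the scaling between libraries and the method of adjustment are not given in the sources used here. Both scales were compared through the difference between treatments, at sites with a positive intensity in both (11301 for GR, 11293 for RELA). Differences in folds and in intensities matched to within 0.5 for GR at 90.6% and for RELA at 86.5% of these sites. The authors' behaviour and trend labels are their own calls and were used only to check the call rule, which matched the behaviour labels at 11571 of 11571 sites for both factors.

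No value per library is given, so no test of libraries was run and depth per sample is unknown. P-values and FDRs are the authors', from 2 libraries a group. Sites were assigned by the nearest-gene column, and distances to a start are from the nearest edge. Table starts count from 0 and were raised by 1. Site positions were set against RefSeq and GENCODE 44 genes, and sequences were read from the GRCh38 reference. The element search was tested on simulated data. Percentiles rank a site among all 11571.

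The genes, lists and rules were chosen with earlier results of these data known. All member sites were named, with the 3 nearest sites by intensity for each gene's strongest site, and of the pathway list the 6 called sites with the highest RELA intensity with IL-1β and the 6 with the highest GR intensity with budesonide. Sequences were printed for called sites by highest intensity, with 6 of up to 8 shown. Some members of the pathway list are counted but not reported here by name. Counts were repeated with other limits on FDR, intensity and difference, with another assignment of sites and with other element rules. Python 3.11.15, pandas 2.3.3, NumPy 2.4.6 and Matplotlib 3.10.9 were used.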

Additional observations from a re-analysis of the deposited data

How the results depend on the processing

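Of 54 alternative values of the counts, 38 stayed within 1.5 times the reported one. With an FDR of at most 0.01, GR with cotreatment was called at 4 IRF sites in place of 7, 3 of them at IRF1. With an intensity of at least 5 it was called at 3, 1 of them at IRF1, and GR with budesonide at 1 in place of 2. RELA counts at IRF1 stayed at 3 or 4 under each limit. GR differences below the limit went from 2 sites to 1 with intensities, and to 0 with a limit of 1 or with called sites only. RELA differences above the limit went from 4 to 2 with a limit of 1 and to 1 with called sites only. Those below the limit went from 2 to 1 under all 4 alternatives, including after subtraction of the median difference of called sites, which was −0.10 for GR and −0.20 for RELA. A κB match at 8 of 9 positions was present in 9 sites in place of 4, and within the central 200 bases no ISRE core remained (0 in place of 1). Fewer sites passed the stricter limits by construction. Assignment by the gene and the 50 kb around it kept 9 sites and changed no count of calls.

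No paired analysis was possible because the table holds no values per library. For the same reason leaving out each library was not run, and whether the calls hold in both experiments is unknown. The FDRs compare a treatment with NS, so a gained call is not a test of cotreatment against budesonide.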
